A study of Mus musculus with 37 samples.

Results

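NRF2, encoded by Nfe2l2, is the transcription factor that raises glutathione synthesis, thioredoxin and quinone reduction and haem breakdown when a cell meets oxidants or electrophiles. KEAP1, the adaptor of a ubiquitin ligase, otherwise sends the NRF2 protein for degradation, so NRF2 activity is usually read from its target genes rather than from its own mRNA. In the liver, the targets are followed as signs of exposure to reactive chemicals and of oxidative stress. The genes followed here were Nfe2l2, Keap1 and 7 targets, namely Nqo1, Gclc, Gclm, Srxn1, Txnrd1, Hmox1 and Gsr, chosen by name and found by the gene symbol of each probe. These 9 genes had 19 of the 30146 probes in the table. Of the 19, 18 passed the filter on low counts, as did 18570 probes of the whole table, and every one of the 9 genes kept at least 1 probe.

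Livers came from wild-type mice of the outbred CD1 strain that were given HFPO-DA, a short-chain perfluoroalkyl ether acid that activates the receptor PPARα in rodent liver, by oral gavage once a day. The daily doses per kg of body weight were 0.1 mg, 0.5 mg and 5 mg, and the vehicle group received deionized water alone. Males, about 6 weeks old at the start, were dosed for 70 days before mating and through 14 days of mating, and received 84 to 85 doses. Females, about 11 weeks old at the start, were dosed from 14 days before mating to lactation day 20 or 21, and received 53 to 65 doses. Sex, age, reproductive state and number of doses therefore cannot be told apart in any comparison between males and females. Each library was made by TempO-Seq, in which probe pairs are ligated on their target RNA and counted, from a scraped section of fixed liver of 1 mouse. Males numbered 5 with vehicle, 5 at the low, 5 at the middle and 4 at the high dose, and females 5, 5, 4 and 4.

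Total counts ranged from 2101495 to 10548222 in males and from 7952605 to 13878254 in females. The 2 shallowest libraries were male replicate 2 at 0.5 mg/kg, with 2608954 counts, and male replicate 3 at 5 mg/kg, with 2101495. Levels are given as CPM, the counts of a probe scaled to the same normalized library total in every mouse. A count of 0 allowed up to 0.308 to 1.13 CPM in a male and 0.206 to 0.350 CPM in a female, a limit that covers counting error only. Probes differ in how well they capture their target, so levels are compared between mice and not between genes. The hepatocyte marker Alb lay between 4304 and 15742 CPM, and the 11 macrophage markers summed to 106 to 597 CPM over the vehicle and 5 mg/kg groups. Since whole tissue was measured, fewer cells of a type and less RNA per cell cannot be told apart.

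The promoters of Srxn1 and Gclm, the genes with a probe that passed the test at 5 mg/kg, are shown with the letters that match the antioxidant response element, the DNA motif bound by NRF2 with a small MAF protein. The motif was searched as TGACNNNGC and as TGAGNNNGC on both strands, and the capitals mark the matches. Each sequence is the RefSeq window of 250 bases before the gene's start in GRCm38.p6, plus strand, at chr2:152105274-152105523 for Srxn1 and at chr3:122245307-122245556 for Gclm.

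Srxn1: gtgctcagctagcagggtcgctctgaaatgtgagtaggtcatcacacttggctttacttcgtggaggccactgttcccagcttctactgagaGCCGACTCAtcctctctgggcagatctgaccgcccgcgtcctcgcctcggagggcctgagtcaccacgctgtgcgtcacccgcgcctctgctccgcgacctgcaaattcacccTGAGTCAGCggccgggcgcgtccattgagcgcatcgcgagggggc

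Gclm: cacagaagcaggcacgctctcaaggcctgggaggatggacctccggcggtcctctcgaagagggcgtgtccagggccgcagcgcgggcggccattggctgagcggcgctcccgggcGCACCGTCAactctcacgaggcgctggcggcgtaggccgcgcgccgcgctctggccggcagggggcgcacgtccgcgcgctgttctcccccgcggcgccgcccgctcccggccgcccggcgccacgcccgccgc

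In the Srxn1 window, TGAGNNNGC matched at GCCGACTCA on the reverse strand, with its first base 158 bases before the start, and at TGAGTCAGC on the forward strand, 45 bases before the start. The second match also contains TGAGTCA, the motif of AP-1 factors. In the Gclm window, TGACNNNGC matched at GCACCGTCA on the reverse strand, 134 bases before the start. Of the 9 genes, 6 had a window in the table, with 8 windows in all, and 4 windows of 4 genes held a match. The other genes with a match were Nfe2l2, with TGACTCCGC 240 bases before the start, and Txnrd1, with GCTTTGTCA in the second of its windows, 92 bases before that start. The windows of Keap1 and Nqo1 held no match. Among all 32851 windows of the same length, 23% held either motif, 10.2% TGACNNNGC and 14.4% TGAGNNNGC, and a match describes only these letters. Gclc, Hmox1 and Gsr were not analysed here for promoter sequence.

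All 9 genes are protein coding in the GENCODE annotation of GRCm38. Nfe2l2 lies at chr2:75675513-75704641 and Keap1 at chr9:21229730-21239361, both on the minus strand. Nqo1 lies at chr8:107388225-107403206 on the minus strand, and Hmox1 at chr8:75093621-75100589 and Gsr at chr8:33652523-33698163 on the plus strand. Gclc lies at chr9:77754535-77794485, Gclm at chr3:122245557-122270732, Srxn1 at chr2:152105516-152111376 and Txnrd1 at chr10:82833951-82897712, all on the plus strand. The place of each probe within its gene was not used here, and several probes of 1 gene are told apart by their number.

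At 5 mg/kg in males, 1 of the 18 probes rose, that of Srxn1, and 1 fell, probe 29258 of Gclm, by edgeR's quasi-likelihood test at a Benjamini-Hochberg adjusted p under 0.10. Of all 18570 probes, 12.7% passed in this comparison, 4.21% higher and 8.49% lower, so the share among the NRF2 probes was near that of all probes. An unadjusted p under 0.05 was reached by 5 of the 18 probes and by 23.3% of all probes. The 18 log2 fold changes had a median of 0.33, with 13 above 0, beside a median of -0.12 over all probes. In females at 5 mg/kg, none of the 18 probes passed edgeR's test, where 4.52% of all probes did. An unadjusted p under 0.05 was reached by 1 probe there, Gclm 72619, and DESeq2 called that 1 probe. The female median was 0.28, with 14 of 18 above 0, beside -0.01 over all probes. The plot of the 18 fold changes at 5 mg/kg shows how wide the intervals of the less abundant probes are.

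**Figure D1:**
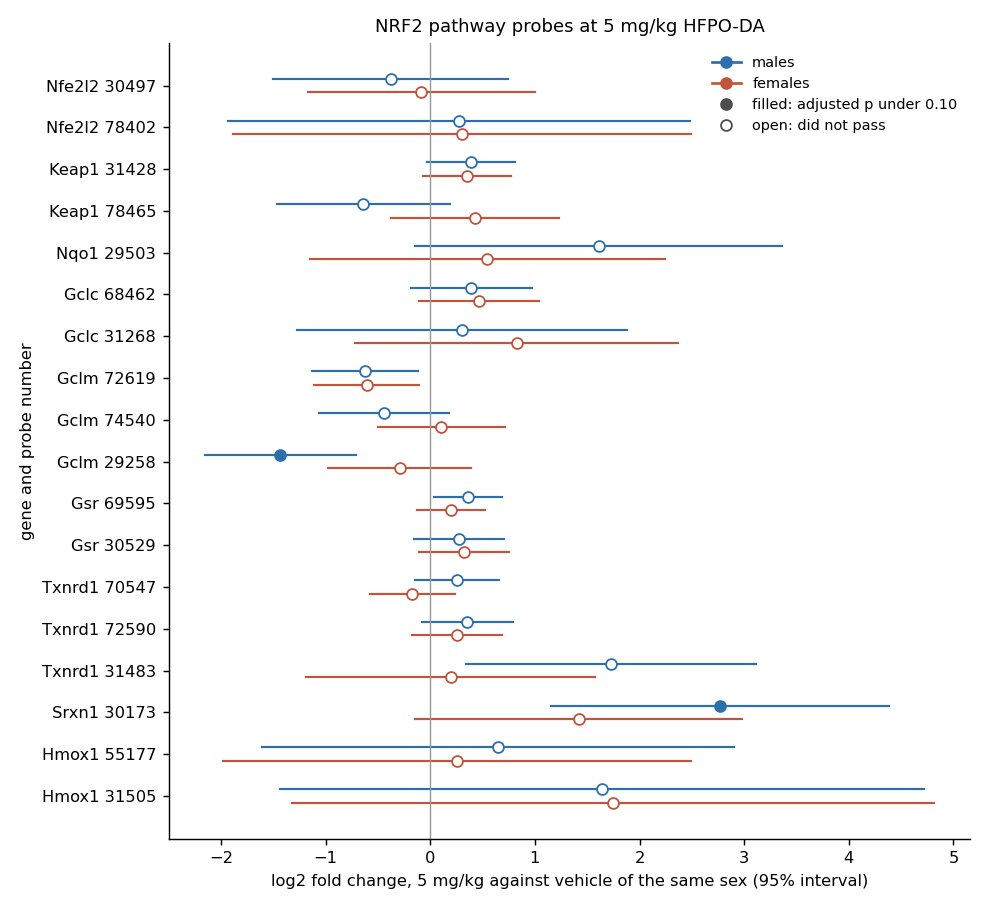
Log2 fold change of each NRF2 pathway probe at 5 mg/kg against the vehicle of the same sex (horizontal axis), by gene and probe number, with bars for the 95% interval and filled points for an adjusted p under 0.10. The filled points are Srxn1 30173 at 2.77 and Gclm 29258 at -1.43, both in males.

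Srxn1 encodes sulfiredoxin, which reduces overoxidized peroxiredoxins, and is among the targets most often used to read NRF2 activity. Its probe 30173 gave 4.44, 2.98, 3.48, 0 and 10.8 CPM in vehicle males and 25.7, 27.9, 34.5 and 30.6 CPM in males at 5 mg/kg. Every male at 5 mg/kg lay above every other mouse of the study, the highest of which reached 15.1 CPM. Males at 0.1 mg/kg gave 6.58, 2.23, 4.44, 0 and 4.57 CPM, and males at 0.5 mg/kg gave 0.161, 0, 4.69, 15.1 and 6.6 CPM. Both lower doses overlapped the vehicle males, and the spread at 0.5 mg/kg was wide. In raw counts the probe had 37, 23, 26, 0 and 76 reads in vehicle males and 109, 253, 92 and 198 reads in males at 5 mg/kg.

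In males, Srxn1 rose 6.83-fold at 5 mg/kg against vehicle (95% interval 2.23 to 20.9; log2 fold change 2.77, SE 0.80, edgeR adjusted p = 0.0217) and by a log2 fold change of 2.43 against 0.5 mg/kg (SE 0.79, edgeR adjusted p = 0.062). The difference from 0.5 mg/kg did not pass with the sexes fitted apart, without the 2 shallowest libraries, at an adjusted p under 0.05, or without replicate 1, 2 or 3 at 0.5 mg/kg or replicate 3 at 5 mg/kg. With the sexes fitted apart, the value against vehicle was 2.76 with an edgeR adjusted p of 0.107. Without the 2 shallowest libraries it was 2.66, with an edgeR adjusted p of 0.0254.

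In females, Srxn1 gave 3.77, 3.07, 5.06, 5.8 and 1.58 CPM with vehicle and 9.1, 15.1, 11.6 and 5.53 CPM at 5 mg/kg. Of the 4 females at 5 mg/kg, 3 lay above every vehicle female and the fourth overlapped them. The female value was 2.68-fold (95% interval 0.907 to 7.9; log2 fold change 1.42, SE 0.77, edgeR adjusted p = 0.495), and 1.42 with an edgeR adjusted p of 0.0323 with the sexes fitted apart. The test of the difference between the male and female changes gave 1.35 on the log2 scale (SE 1.10, 95% interval -0.87 to 3.57, edgeR adjusted p = 0.769), so these data do not show that the sexes differed or that they responded alike.

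By group mean and SD, Srxn1 was highest in males at 5 mg/kg (29.7 ± 3.79 CPM, n = 4), then in females at 5 mg/kg (10.3 ± 4.05 CPM, n = 4), females at 0.5 mg/kg (6.64 ± 3.43 CPM, n = 4) and males at 0.5 mg/kg (5.31 ± 6.17 CPM, n = 5). Vehicle males (4.34 ± 3.97 CPM, n = 5), vehicle females (3.86 ± 1.66 CPM, n = 5), males at 0.1 mg/kg (3.56 ± 2.52 CPM, n = 5) and females at 0.1 mg/kg (3.53 ± 1.09 CPM, n = 5) followed. Apart from the step between the first 2 groups, neighbours in this order overlapped mouse by mouse. The second Srxn1 probe, 75314, did not pass the filter on low counts: it had 0, 7, 18, 0 and 0 reads in vehicle males and 0, 0, 0 and 25 reads in males at 5 mg/kg.

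Nqo1 encodes a quinone reductase and is, with Srxn1, a common marker of NRF2 activation. Its only probe gave 0.24, 4.41, 0, 8.24 and 0 CPM in vehicle males and 6.6, 7.28, 7.13 and 10.5 CPM in males at 5 mg/kg. The groups overlapped through vehicle replicate 4, while all 4 males at 5 mg/kg lay above all 5 males at 0.5 mg/kg, which gave 3.87, 0, 0.74, 1.23 and 4.15 CPM. The male log2 fold change against vehicle was 1.61 (SE 0.87, edgeR adjusted p = 0.261), and 2.72 without vehicle replicate 4 (edgeR adjusted p = 0.0648). In females the probe gave 15.7, 5.33, 4.21, 7.67 and 4.33 CPM with vehicle and 9.1, 9.3, 12.2 and 12.9 CPM at 5 mg/kg, with a log2 fold change of 0.55 (SE 0.84, edgeR adjusted p = 1). Vehicle replicate 1 was the highest of these females.

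**Figure D2:**
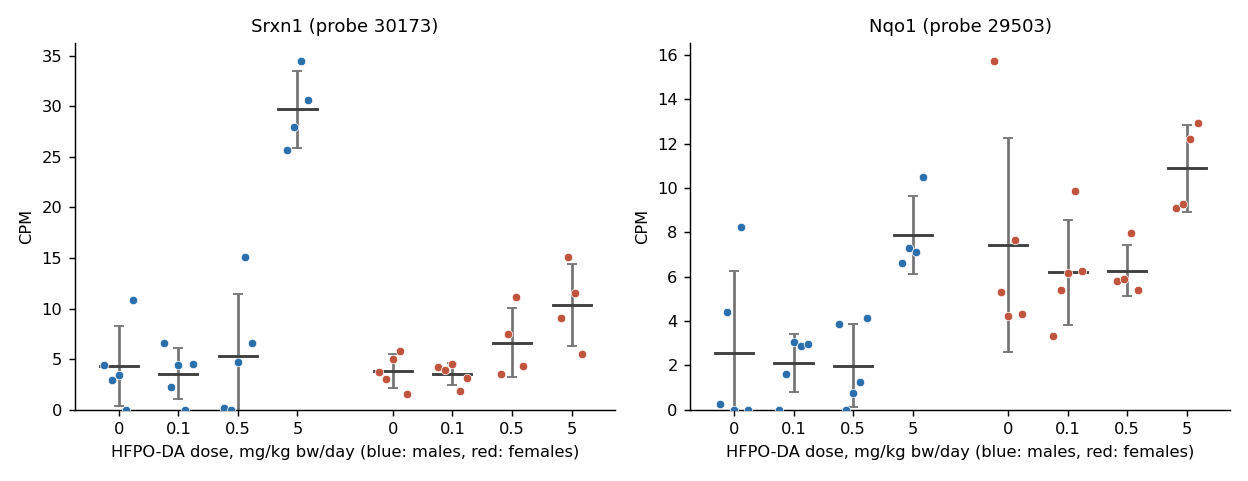
CPM of Srxn1 probe 30173 and of the Nqo1 probe (vertical axis) by HFPO-DA dose (horizontal axis, doses evenly spaced), with a point per mouse, a line at the group mean and bars for the SD (not drawn below 0), males in blue and females in red. Males at 5 mg/kg lie between 25.7 and 34.5 CPM for Srxn1, above all other mice.

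Glutamate-cysteine ligase catalyses the rate-limiting step of glutathione synthesis, with Gclc as its catalytic and Gclm as its modifier subunit. Gclm had 3 probes. Probe 29258 gave 16.3, 11.5, 19.1, 35.5 and 29.6 CPM in vehicle males and 3.77, 10.2, 9.75 and 9.43 CPM in males at 5 mg/kg. All 4 males at 5 mg/kg lay below all vehicle males, and replicate 1 lay apart below the other 3. The probe fell to 0.371 of the vehicle level (95% interval 0.226 to 0.610; log2 fold change -1.43, SE 0.36, edgeR adjusted p = 0.0066), and against 0.5 mg/kg the log2 fold change was -1.31 (SE 0.36, edgeR adjusted p = 0.023). In females it gave 15.9, 15.6, 18.7, 11 and 19.5 CPM with vehicle and 17.5, 7.48, 15.4 and 12.5 CPM at 5 mg/kg, overlapping groups with a log2 fold change of -0.29 (SE 0.34, edgeR adjusted p = 0.968). The test of whether the male and female changes differed gave -1.14 on the log2 scale (SE 0.48, edgeR adjusted p = 0.392).

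Gclm probe 72619, the most abundant of the 3, gave 83.5, 42.6, 50.3, 64.7 and 81.0 CPM in vehicle males and 43.4, 50.6, 18.4 and 53.2 CPM at 5 mg/kg. These groups overlapped, with a log2 fold change of -0.63 (SE 0.25, edgeR adjusted p = 0.117), and the lowest value belonged to replicate 3, the library with the fewest counts. Leaving out in turn vehicle replicate 2 or 3, or replicate 2 or 4 at 5 mg/kg, brought the edgeR adjusted p to between 0.053 and 0.0791, and without the 2 shallowest libraries the value was -0.43. In females the same probe had a log2 fold change of -0.61 (SE 0.25, edgeR adjusted p = 0.242), with 2 of 4 mice at 5 mg/kg below all vehicle females. Probe 74540 stood at -0.44 in males and at 0.11 in females on the log2 scale, and neither passed. With the counts of the 3 probes summed, Gclm fell in males by 0.68 on the log2 scale (edgeR adjusted p = 0.0207). After the group means were taken away, the correlation of the 3 probe pairs over the 37 mice was r = 0.04 for 29258 with 72619, -0.17 for 29258 with 74540 and 0.42 for 72619 with 74540, so the probe that passed varied little with the other two from mouse to mouse. Of 11 such probe pairs over the genes, none passed a permutation test after Benjamini-Hochberg adjustment (smallest adjusted p = 0.208).

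**Figure D3:**
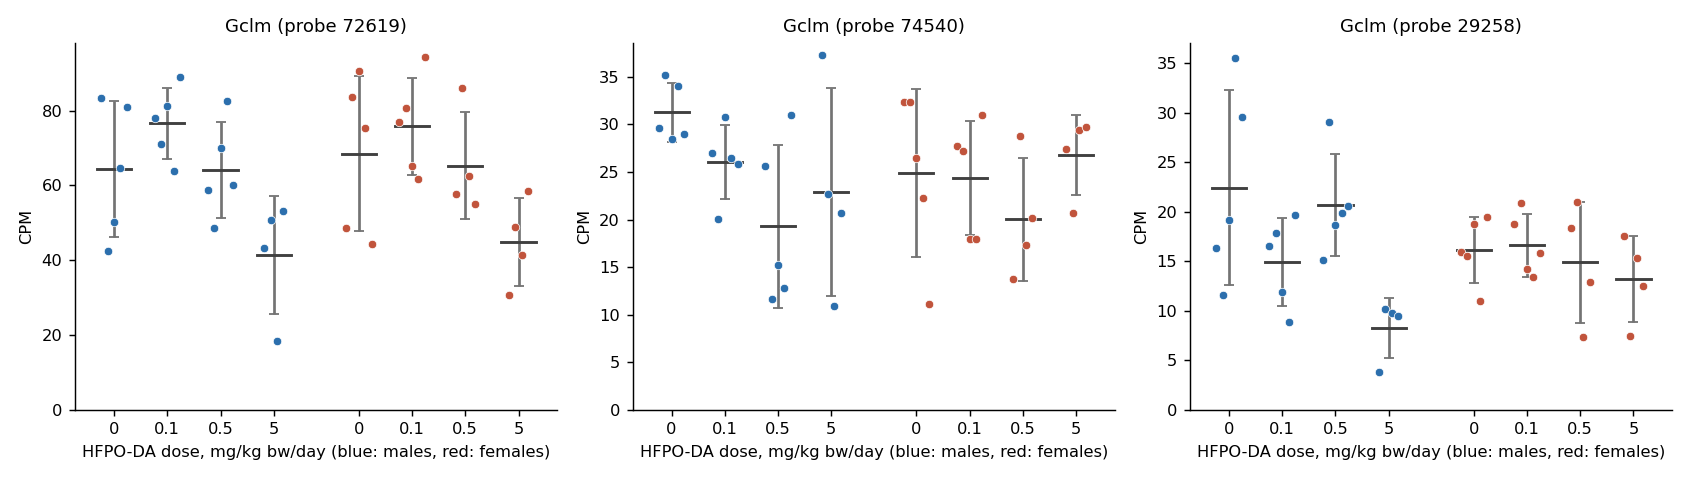
CPM of the 3 Gclm probes (vertical axis) by HFPO-DA dose (horizontal axis, doses evenly spaced), with a point per mouse, a line at the group mean and bars for the SD (not drawn below 0), males in blue and females in red. For probe 29258 the males at 5 mg/kg lie between 3.77 and 10.2 CPM, below all vehicle males.

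For Gclc, probe 68462 gave 58.1, 22.3, 28.4, 42.0 and 59.4 CPM in vehicle males and 51.2, 44.0, 68.6 and 57.5 CPM at 5 mg/kg, with a log2 fold change of 0.39 (SE 0.29, edgeR adjusted p = 0.446). In females its log2 fold change was 0.47 (SE 0.28, edgeR adjusted p = 0.607). The less abundant probe 31268 had values of 0.30 in males and 0.82 in females, with intervals that held 0. Neither probe passed in either sex.

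Gsr encodes glutathione reductase, which regenerates reduced glutathione with NADPH. Probe 69595 gave 414, 361, 343, 402 and 421 CPM in vehicle males and 428, 474, 516 and 580 CPM at 5 mg/kg, so all 4 treated males lay above all vehicle males. The log2 fold change was 0.36 (SE 0.16) and did not pass in edgeR (adjusted p = 0.156), while DESeq2 gave 0.47 with an adjusted p of 0.0197. In females it was 0.20 (SE 0.16, edgeR adjusted p = 0.823). Probe 30529 stood at 0.28 in males and at 0.32 in females on the log2 scale, which did not pass.

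Txnrd1 encodes the cytosolic thioredoxin reductase, a selenoprotein. Its most abundant probe, 70547, gave 68.8, 64.2, 94.2, 77.1 and 83.4 CPM in vehicle males and 81.1, 75.0, 84.0 and 130 CPM at 5 mg/kg, and its log2 fold change was 0.26 in males and -0.17 in females. Probe 31483 gave 4.8, 6.36, 10.7, 0 and 1.56 CPM in vehicle males and 0.943, 20.1, 29.6 and 11.9 CPM at 5 mg/kg, where 3 of 4 mice lay above all vehicle males and replicate 1 lay among them. Its log2 fold change was 1.73 (SE 0.69, edgeR adjusted p = 0.114) in males and 0.19 (SE 0.68) in females. At 0.1 mg/kg the same probe gave 11, 17.7, 7.99, 22.2 and 6.7 CPM in males, with a log2 fold change of 1.47 (SE 0.66, edgeR adjusted p = 0.647). Probe 72590 had log2 fold changes of 0.35 and 0.26. None of the 3 probes passed edgeR's test in either sex. In males, probe 31483 passed with DESeq2 (1.85, adjusted p = 0.0534), with DESeq2's size factors in edgeR (1.84, adjusted p = 0.0937) and with thinned counts (2.01, edgeR adjusted p = 0.0614). It also passed without replicate 1 at 5 mg/kg (2.09, edgeR adjusted p = 0.0421) and without vehicle replicate 3 (2.26, edgeR adjusted p = 0.0504).

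Hmox1 encodes haem oxygenase 1, which opens the haem ring and, in liver, is prominent in the macrophages that clear red cells. Probe 31505 was at 0 in 12 of 37 mice. It gave 0.961, 4.28, 0, 2.26 and 0 CPM in vehicle males and 4.24, 0, 9.0 and 5.72 CPM at 5 mg/kg, groups that overlapped. In females it gave 0.733, 0.41, 1.31, 0.885 and 0.583 CPM with vehicle and 1.75, 3.1, 2.98 and 2.81 CPM at 5 mg/kg, with no overlap. The log2 fold changes were 1.64 (SE 1.52) in males and 1.74 (SE 1.52, edgeR adjusted p = 0.87) in females. Probe 55177 had values of 0.65 and 0.26, with intervals that held 0. Of the 11 macrophage markers, none passed edgeR's test at 5 mg/kg in either sex, none reached an unadjusted p under 0.05 and none was called by DESeq2. Their summed level was 106 to 481 CPM in vehicle males and 153 to 416 CPM at 5 mg/kg, and 238 to 501 CPM in vehicle females and 295 to 597 CPM at 5 mg/kg. Marco had a median of 0 CPM over all mice, and the part of macrophages in the Hmox1 values was not tested.

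For the factor and its repressor, no probe passed. Nfe2l2 probe 30497 gave 11, 8.43, 14.8, 6.25 and 6.82 CPM in vehicle males and 15.3, 4.63, 7.13 and 2.47 CPM at 5 mg/kg, and its log2 fold change was -0.38 (SE 0.56) in males and -0.08 (SE 0.54) in females. Probe 78402 had values of 0.27 and 0.30. Keap1 probe 31428 gave 55.2, 69.0, 88.8, 41.2 and 50.0 CPM in vehicle males and 55.9, 74.5, 97.1 and 91.0 CPM at 5 mg/kg, with log2 fold changes of 0.39 (SE 0.21, edgeR adjusted p = 0.26) and, in females, 0.35 (SE 0.21, edgeR adjusted p = 0.574). The second Keap1 probe, 78465, gave 0.472, 10.9, 13.5 and 13.6 CPM in males at 5 mg/kg, where replicate 1 was the low value. It stood at -0.64 in males and at 0.43 in females on the log2 scale.

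Counted by mice rather than by test, 2 NRF2 probes (Srxn1 30173 and Gsr 69595) lay wholly above and 1 (Gclm 29258) wholly below the vehicle group in males at 5 mg/kg, where 7.58% of all probes had groups that did not overlap. In females 1 probe, Hmox1 31505, lay wholly above, where 8.71% of all probes did not overlap. Against 0.5 mg/kg, Srxn1 30173 and Nqo1 lay wholly above and Gclm 29258 wholly below in males (4.71% of all probes did not overlap), and Nqo1 and Hmox1 31505 lay wholly above in females (7.82%). Replicate 1 of the males at 5 mg/kg gave the lowest value of its group for 8 of the 18 probes, namely Srxn1 30173, Nqo1, Gsr 69595, Gclm 29258, both Keap1 probes, Gclc 31268 and Txnrd1 31483. Replicates 2, 3 and 4 gave it for 4, 5 and 1 probes.

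At the lower doses no NRF2 probe passed. In males at 0.5 mg/kg, 0.625% of all probes passed edgeR's test and 1 of the 18, Gclm 74540 with a log2 fold change of -0.69 (SE 0.29), fell under an unadjusted p of 0.05. For males at 0.1 mg/kg, where 0% of all probes passed, Txnrd1 31483 was the 1 probe with an unadjusted p under 0.05. In females, 0.113% of all probes passed at the middle dose and 0% at the low dose, and 0 of the 18 probes had an unadjusted p under 0.05 at either dose. DESeq2 called 0 of the 18 in each of these 4 comparisons. Between 5 and 0.5 mg/kg, Srxn1 30173 and Gclm 29258 passed in males, where 8.73% of all probes did. No probe passed edgeR's test in females, where 1.48% of all probes did, 1 of the 18 had an unadjusted p under 0.05 and DESeq2 called 0. The plot of fold changes by dose shows the most abundant probe of each gene.

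**Figure D4:**
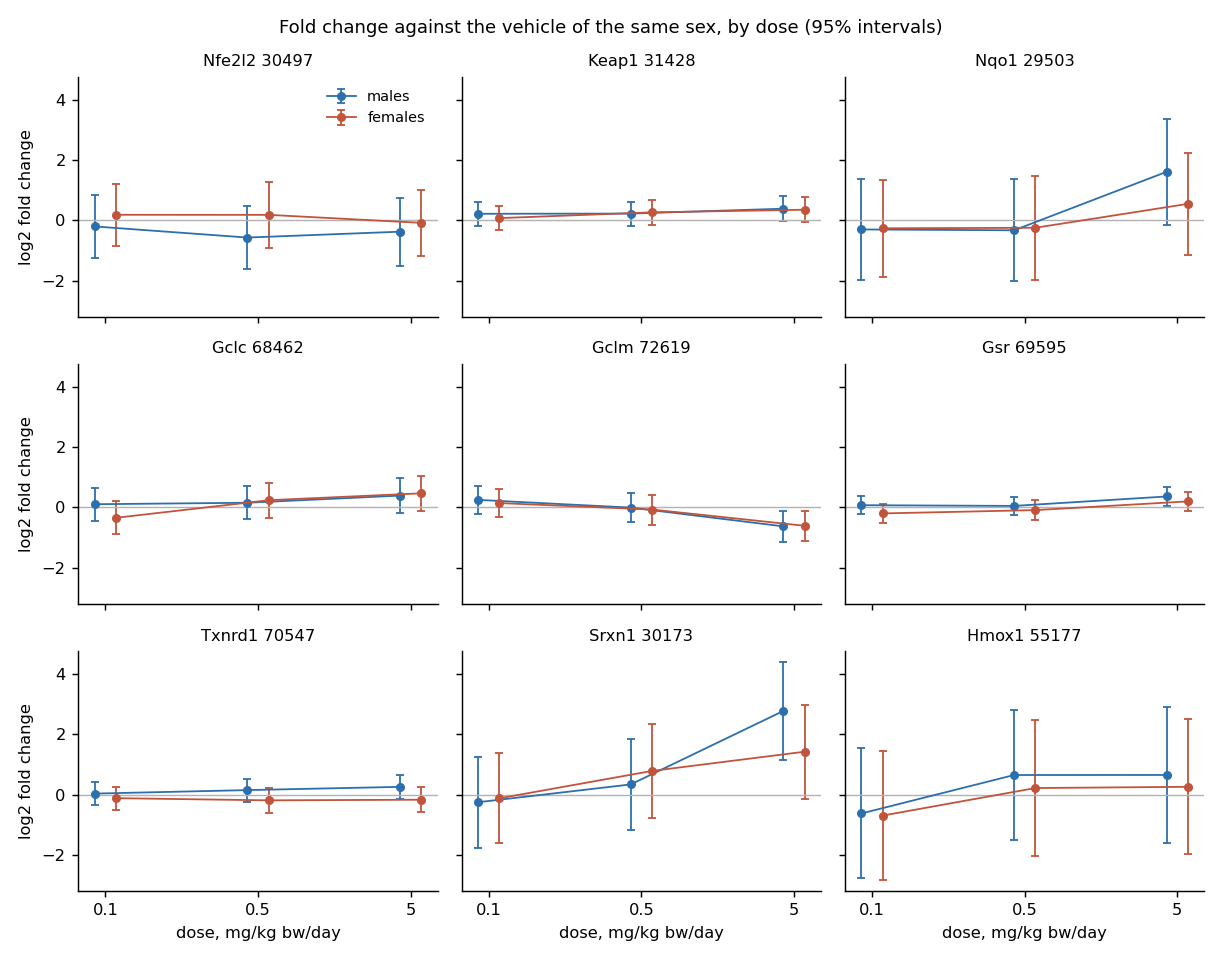
Log2 fold change against the vehicle of the same sex (vertical axis) by dose (horizontal axis, doses evenly spaced) for the most abundant probe of each of the 9 genes, with bars for the 95% interval. For Srxn1 in males the value goes from -0.25 at 0.1 mg/kg and 0.34 at 0.5 mg/kg to 2.77 at 5 mg/kg.

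Between the sexes, the changes at 5 mg/kg were compared as an interaction. None of the 18 probes passed edgeR's test, where 0.63% of all probes did, 1 had an unadjusted p under 0.05 (Gclm 29258) and DESeq2 called 0. At 0.5 mg/kg none passed, where 0.0108% of all probes did, with 0 at an unadjusted p under 0.05 and 0 by DESeq2. Between vehicle females and vehicle males, 1 of the 18 probes passed, where 2.6% of all probes did. It was Gsr 30529, with 353, 212, 301, 219 and 212 CPM in males and 176, 165, 228, 127 and 116 CPM in females. Of the 5 females, 4 lay below all males and replicate 3 overlapped them, with a log2 fold change of -0.67 (SE 0.20, edgeR adjusted p = 0.0804). Leaving out any of female replicates 1, 2, 4 or 5 or male replicates 1 or 3 raised that adjusted p to between 0.101 and 0.253. The other Gsr probe, 69595, had a log2 fold change of -0.16 (SE 0.15).

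Of the 9 genes, Srxn1 was the only one whose most abundant probe passed at 5 mg/kg in the main edgeR fit. With DESeq2, the most abundant probes of Gsr in males and of Gclm in females also passed. After the group means were taken away from log2 CPM, the 3 genes of 12995 that varied most like Srxn1 over the 37 mice were Elp5 (Pearson r = 0.79, Spearman rho = 0.47), Rpp14 (r = 0.77, rho = 0.73) and Arfgap3 (r = 0.75, rho = 0.70). Without the 2 mice farthest from the median, r was 0.65, 0.71 and 0.63. These genes were picked as the highest of all, and the points are libraries that differ in depth. Median levels over the 37 mice were 6.95 CPM for Elp5, 1.19 for Rpp14 and 20.5 for Arfgap3. Srxn1 had a median of 4.54 CPM and was at 0 in 3 mice, and the part of low counts in these correlations was not tested.

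Other genes of the pathway were followed in lists by role, each gene by its most abundant probe. Of 78 genes, 73 were tested. At 5 mg/kg 13 rose and 10 fell in males, where 4.65% and 8.86% of 12996 genes did, and 10 rose and 1 fell in females, where 2.42% and 2.51% did. These lists were chosen with earlier results of these data known, so their counts, here and below, describe the lists and test no excess. The regulators of NRF2 (KEAP1's ligase partners, MAF and BACH proteins, kinases and related factors) had 16 genes tested, and none passed edgeR's test in either sex. Of them, 3 had an unadjusted p under 0.05 in each sex and DESeq2 called 1 in each. The 4 with the smallest adjusted p were Syvn1 (log2 fold change -0.54 in males and -0.24 in females), Nfe2l1 (0.35 and 0.37), Mafg (-0.66 and -0.29) and Crebbp (-0.37 and -0.54).

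Among 7 genes that supply NADPH, 2 rose in males and 1 in females. Me1, malic enzyme, rose from 114 ± 45.6 to 560 ± 122 CPM in males (SD, n = 5 and 4; log2 fold change 2.29, edgeR adjusted p = 1.9e-08) and from 73.3 ± 20.2 to 272 ± 53.2 CPM in females (1.89, edgeR adjusted p = 1.36e-06). Pgd, of the pentose phosphate pathway, rose in males (1.46, edgeR adjusted p = 0.0331). Whether NRF2, PPARα or another factor changed these or other genes of the lists was not tested. Among 13 tested genes of glutathione and thioredoxin, 3 rose in males and 2 in females. These were the peroxidase Gpx4 (0.72 in males, 0.73 in females), the peroxidase Gpx1 (0.58, males) and the 5-oxoprolinase Oplah (0.77 in males, 1.64 in females). Among 8 genes of haem and iron, the ferritin chains Ftl1 (0.62) and Fth1 (0.40) rose in males, and Hmox2 (-0.93), the biliverdin reductase Blvra (-1.57) and the ferrochelatase Fech (-0.64) fell. In females only Ftl1 (0.73) passed.

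Of 17 tested genes of detoxification and export, 5 rose and 2 fell in males and 3 rose in females. Cbr1, a carbonyl reductase (1.22), Ugdh, which makes UDP-glucuronate (1.23 in males, 1.05 in females), the epoxide hydrolase Ephx1 (0.91 and 1.65) and the aldehyde dehydrogenase Aldh1a1 (0.71 and 1.22) rose. The exporter Abcc4 passed in males with a total of 6 reads over the 5 vehicle mice, 4 of which had 0, and 156 over the 4 mice at 5 mg/kg. These groups overlapped, as the lowest male at 5 mg/kg had 0.375 CPM and the highest vehicle male 0.778 CPM. Osgin1 (-1.14) and Akr1c19 (-0.89) fell in males. Among 12 glutathione S-transferases, 1 rose and 5 fell in males, and 3 rose and 1 fell in females. Gstm4 rose (1.08 and 1.23) and Gstm2 fell (-1.61 and -1.65) in both sexes. Gstp1 fell from a mean of 4273 to 1767 CPM in males (-1.27, edgeR adjusted p = 0.000373) and rose from a mean of 386 to 762 CPM in females (0.98, edgeR adjusted p = 0.00866), and the test of the male against the female change passed (-2.26, SE 0.34, edgeR adjusted p = 0.000134). Gstp2 (-1.35 in males, 1.24 in females) followed the same directions, and Gsta4 (-0.93) and Gsta3 (-0.63) fell in males. Close copies among them, such as Gstp1 and Gstp2, may share reads between their probes, which was not tested.

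**Figure D5:**
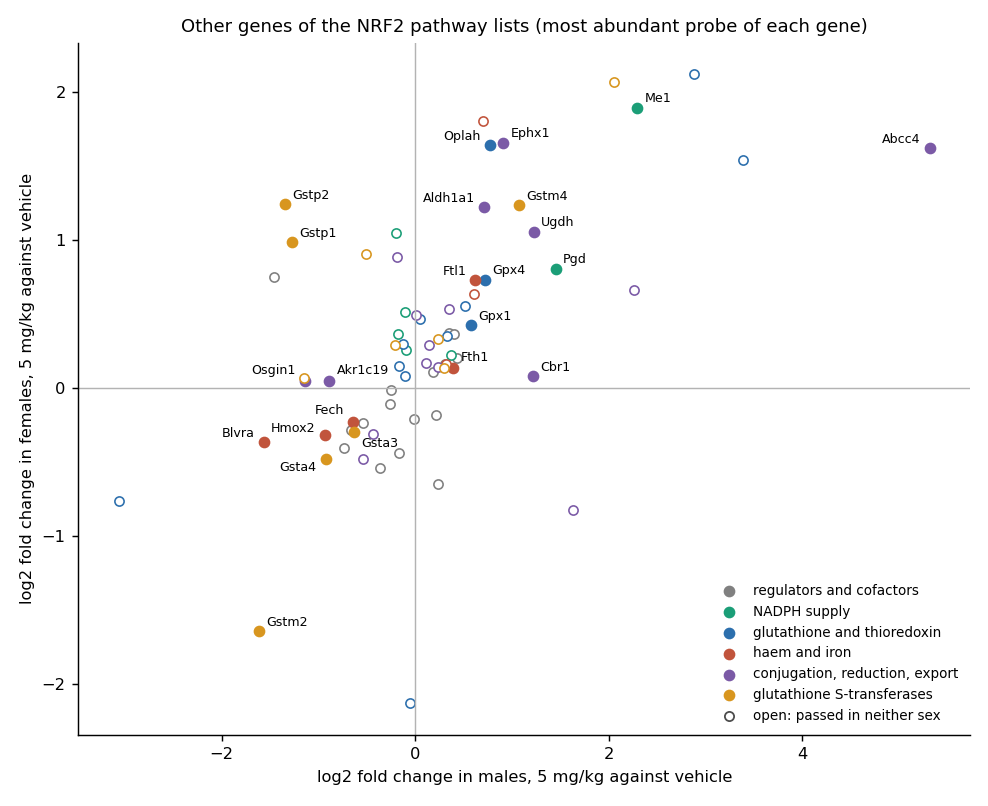
Log2 fold change at 5 mg/kg against vehicle in males (horizontal axis) and females (vertical axis) for the tested genes of the pathway lists, each by its most abundant probe, filled where the adjusted p was under 0.10 in at least 1 sex. Me1 lies at 2.29 and 1.89 and Gstp1 at -1.27 and 0.98, while the fitted male value of Abcc4 rests on 6 vehicle reads and is no measure of size.

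Beside these lists, 10 target genes of PPARα were measured as a reference for the treatment. At 5 mg/kg, 10 of 10 rose in the male group and 9 in the female group, where 4.65% and 2.42% of the 12996 genes rose. Among them were Ehhadh (log2 fold change 5.51 in males, 5.03 in females), Acot1 (4.78 and 4.80) and Cyp4a10 (6.47 and 4.38). At 0.5 mg/kg, 8 rose in males and 6 in females, where 0.423% and 0.123% of the 12996 genes rose.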

How the data were processed

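Liver sections of 37 mice were measured by TempO-Seq. The authors sampled 40 mice, removed 3, and deposited raw counts per probe. The submitters' processing notes name bcl2fastq 2.17.1.14 and Bowtie, and the probe reference build is not given in the sources used here. All columns matched a sample, and no pair of columns held identical values. Counts were tested with edgeR 4.0.16 (limma 3.58.1, R 4.3.3): probes were kept by filterByExpr over the 8 groups, TMM-normalized, and fitted in 1 model of all mice with a mean per group (glmQLFit, glmQLFTest). P-values were adjusted by Benjamini-Hochberg over 18570 probes, with a threshold of 0.10 that follows the study's 10% false discovery rate. They set each group difference against the spread between libraries, 1 per mouse, which holds animal and technical variation together. SE was the log2 fold change divided by the square root of F, and 95% intervals used the residual and prior degrees of freedom. Alternatives were DESeq2 1.42.0, its size factors in edgeR, other filters, a robust fit, each sex apart, summed probes, thinned counts, an adjusted p under 0.05 and leaving out each mouse. Leaving out the 2 shallowest libraries, and following the called probes that are not the most abundant of their gene, were chosen after seeing the data. Scripts were tested on simulated data.

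All probes of the 9 genes are accounted for, and of each further list up to 4 genes with the smallest adjusted p at 5 mg/kg are named, except 1 gene that is not reported here. Fth1, Abcc2, Abcc4, Osgin1, Akr1c19, Gsta2, Gsta3 and Gstp2 were named after their values were seen, to complete a count. The genes and lists were chosen with earlier results of these data known. Figures were drawn with matplotlib 3.10.9 in Python 3.11.15.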

Additional observations from a re-analysis of the deposited data

Results flagged for a closer look

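Of 144 groups of mice checked, 7 held a mouse that stood apart from the rest of its group, and chance alone gives about 1 in 20 groups. Gclm 29258 was at 3.77 CPM in replicate 1 of the males at 5 mg/kg, where the others lay between 9.43 and 10.2 CPM. Txnrd1 70547 was at 129.9 CPM in replicate 4 of the same group, where the others lay between 75.0 and 84.0 CPM. In vehicle males, replicate 4 had 7.04 CPM of Hmox1 55177 (others 0 to 1.56) and 4.65 CPM of Nfe2l2 78402 (others 0.961 to 1.61), and replicate 3 had 22.7 CPM of Keap1 78465 (others 10.9 to 14.3). Hmox1 31505 was at 3.59 CPM in replicate 4 of the males at 0.5 mg/kg, and at 0 in the others. Keap1 31428 was at 84.0 CPM in replicate 5 of the females at 0.1 mg/kg, where the others lay between 64.9 and 68.7 CPM.

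The change at 5 mg/kg differed between males and females, by the test of that difference, for 3 of the 73 tested genes of the pathway lists, where 0.185% of 12996 genes passed with a higher and 0.439% with a lower male change. They were Gstp1 (-2.26 on the log2 scale, edgeR adjusted p = 0.000134), Gstp2 (-2.587, edgeR adjusted p = 0.0256) and Cbr1 (1.138, edgeR adjusted p = 0.026). Sex, age, reproductive state and number of doses cannot be told apart in these differences. Depth also went with sex, from 2101495 to 10548222 counts in males and from 7952605 to 13878254 in females.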

How the results depend on the processing

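In males at 5 mg/kg, 2 NRF2 probes passed edgeR's test. The count was 4 with DESeq2 and 4 with DESeq2's size factors in edgeR (both adding Txnrd1 31483 and Gsr 69595), 5 with counts thinned to the smallest total (adding those and Gclm 72619), 3 with a robust fit and 3 with a mean of at least 10 counts (both adding Gclm 72619), and 1 with each sex fitted apart, which lost Srxn1. Leaving out 1 mouse gave 2 to 4, with 4 without vehicle replicate 3. In females at 5 mg/kg the count of 0 became 1 with DESeq2 (Gclm 72619) and 2 with each sex fitted apart (Srxn1 and Gclm 72619). Between 5 and 0.5 mg/kg in males the count of 2 became 1 with each sex fitted apart, 1 with probes summed, 1 at an adjusted p under 0.05 and 1 without the 2 shallowest libraries (Srxn1 lost in each but the summed probes, where Gclm was), and 3 with DESeq2 (adding Gsr 69595) and 3 with thinned counts (adding Gclm 72619). Leaving out 1 mouse gave 1 to 3 there, with only Gclm 29258 left without replicate 1 or 3 at 0.5 mg/kg or replicate 3 at 5 mg/kg. Between vehicle females and males the count of 1 became 0 with probes summed and 0 at an adjusted p under 0.05, and leaving out 1 mouse gave 0 to 1. In the other 7 comparisons the count stayed 0 under every alternative run. The share of all probes that passed under each alternative is not given here, so a higher count alone does not show a stronger NRF2 result. The cause of these differences was not tested.

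In males at 5 mg/kg, Srxn1 ranged from 2.43 to 3.43 on the log2 scale without 1 mouse (edgeR adjusted p 0.00903 to 0.053), and Gclm 29258 from -1.63 to -1.23. In females, leaving out 1 mouse turned the sign of Hmox1 55177 (-0.20 to 0.59, and -0.09 without replicate 2 at 5 mg/kg) and of Nfe2l2 30497 (-0.29 to 0.13, and 0.06 without replicate 4 at 5 mg/kg). Over 20 results followed, 166 of 177 fold changes under other settings and 166 of 181 without 1 mouse kept their direction and side of the threshold. In males at 5 mg/kg, the median log2 fold change of all probes was -0.12 in edgeR and -0.026 with DESeq2's size factors. It was 0 with DESeq2, which was run without the filter on low counts, and 0 with edgeR without that filter. Probes near 0 reads, such as those of Hmox1, allow only wide intervals at this depth.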

Other observations

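At 0.5 mg/kg in males, 1 of the 73 tested genes of the pathway lists rose and 1 fell, where 0.423% and 0.277% of 12996 genes did. The exporter Abcc2 rose (log2 fold change 0.59, edgeR adjusted p = 0.0997) and the glutathione S-transferase Gstm2 fell (-1.80, edgeR adjusted p = 0.000567). Abcc2 in males was lower at 5 than at 0.5 mg/kg (-0.48, edgeR adjusted p = 0.0926) and did not pass at 5 mg/kg against vehicle. In males at 0.5 mg/kg, DESeq2 called 4 genes of detoxification and export up and 1 glutathione S-transferase down. In females at 0.5 mg/kg, edgeR called 0 of the 73, where 0.123% of the 12996 genes rose and 0.00769% fell. DESeq2 called 1 gene of glutathione and thioredoxin and 1 of detoxification and export up there, and 1 regulator down. It called 1 gene of detoxification and export up in females at 0.1 mg/kg. The share of all genes that DESeq2 called is not given here. Between vehicle females and vehicle males, 2 of the 73 genes were higher in females and 6 lower, where 1.51% and 1.34% of the 12996 genes were. Cbr1 (1.07) and Abcc4 were higher in females, Abcc4 with a total of 6 reads over the 5 vehicle males and 176 over the 5 vehicle females. Gstp1 (-3.47), Gstp2 (-3.50), Gsta2 (-2.21), Ugdh (-1.32), Ephx1 (-1.19) and Syvn1 (-0.82), a ubiquitin ligase that acts on NRF2, were lower.

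At 5 mg/kg, 1 of 5 tested hepatocyte markers fell in males, Cps1 (-1.37, edgeR adjusted p = 0.00877), and 1 in females, Ttr (-0.69, edgeR adjusted p = 0.00345). Of 6 endothelial markers, the receptor Kdr (-0.95, edgeR adjusted p = 0.0708) fell in males and none fell in females. The other markers of both lists did not pass, where 8.86% of 12996 genes fell in males and 2.51% in females. Of the tested markers of stellate cells, cholangiocytes, red cells and leukocytes, none passed edgeR's test at 5 mg/kg in either sex. An unadjusted p under 0.05 was reached by 1 stellate and 1 leukocyte marker in males and by 1 red cell marker in females, and DESeq2 called 1 stellate marker in males.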
